A study of Mus musculus with 2 samples.

Results

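The genes of the transforming growth factor beta (TGF-beta) and bone morphogenetic protein (BMP) pathways were followed in LSK cells of nondiabetic and diabetic mice. They were 38 genes listed by name for their roles as ligands, latent binding proteins, receptors, coreceptors, Smads, ubiquitin ligases, corepressors and Id targets. The rule sets no limit on expression, but the list was drawn up with earlier results of these data known. All 38 were found among the 21360 genes that could be named on the array, on 53 of its 55661 probes. LSK cells are bone marrow cells without the surface markers of mature blood lineages that carry Sca-1 and c-kit, a gate rich in hematopoietic stem and early progenitor cells. Per the labels, all mice were female C57BL/6J, whereas the methods of the study describe male mice. One group was nondiabetic, and the other had diabetes induced by streptozotocin (STZ), a toxin of the pancreatic β-cell. The methods give citrate buffer as the control injection. The labels give neither the age of the mice nor the time after STZ. Each group was 1 array, made from 8.3 ng of total RNA, and its label names 3 mice. No value for a single mouse can therefore be had, and no p-value was calculated.

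TGF-beta, the activins and the BMPs are secreted dimers that bring together type I and type II receptor kinases. TGF-beta and activin receptors phosphorylate Smad2 and Smad3, BMP receptors phosphorylate Smad1, Smad5 and Smad9, and both sets enter the nucleus with Smad4. In bone marrow, TGF-beta is known for holding hematopoietic stem cells in quiescence, while BMP signals act on blood formation from the embryo onward. The arrays measured RNA and not the phosphorylation that activates a Smad.

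The share of spots flagged as clearly above background was 62.7% for nondiabetic and 63.9% for diabetic mice, and 0 spots were saturated. Intensities below are the processed intensities of the scanner software in arbitrary units, before the arrays were scaled to each other. The error after ± is the software's own error for the probe, which covers neither mice nor RNA preparations. Log2 ratios are diabetic over nondiabetic after scaling to the 75th percentile of each array (168 and 182). Their software error had a median of 0.21 over the members' probes. Genes were described by size, with 2-fold as the limit. Since probes differ in how strongly they bind, intensities of different probes do not rank the genes. They were set together only to choose the brightest probe of a gene, to sum marker lists and to set a lowest detected intensity.

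Kit, which encodes c-kit, read 4635 ± 464 on the nondiabetic and 4735 ± 474 on the diabetic array. Ly6a, which encodes Sca-1, read 475 ± 47.6 and 701 ± 70.1. All 6 stem and multipotent progenitor markers were well above background on both arrays, with a summed intensity of 10014 and 12858. They did not share a direction. Mecom read 182 and 86.1 on its brighter probe (log2 ratio -1.20) and had -0.16 on the other. By their brightest probes, Hlf, Cd34, Flt3, Gata2 and Meis1 had log2 ratios from 0.19 to 0.32. Markers listed for other cell types were also detected, which alone does not show that cells from outside the gate were present. On both arrays, these were 5 of the 5 monocyte and granulocyte markers found on the array, 3 of 3 erythroid, 3 of 4 megakaryocyte and platelet, 2 of 4 B cell, 1 of 5 stromal and 4 of 5 endothelial markers. Of the stromal markers, Cxcl12 was called well above background in nondiabetic mice only (14.1 ± 2.87 and 11.3 ± 2.69). Lepr was so called in diabetic mice only (12.3 ± 2.63 and 13.2 ± 2.63). Both lay close to the limit of detection on both arrays, so these calls do not show presence or absence. Of 4 T and NK cell markers, 3 were detected in nondiabetic and 2 in diabetic mice. Ppbp, Ms4a1, Ebf1, Cd8a, Col1a1, Dcn and Cdh5 were dim on both arrays. The summed intensities of the monocyte and granulocyte list (42628 and 41651), the T and NK cell list (3565 and 2790) and the stromal list were lower on the diabetic array. Those of the erythroid list (2105 and 5209) and the B cell list (65.3 and 155) were higher there. Itgam (34686 and 35189) made up most of the first sum, Nkg7 (3291 and 2582) of the second and Hba-a1 (1984 and 4967) of the erythroid sum. In the first list, Csf1r (log2 ratio -0.34) and Mpo (-0.68) lay below 0, and Adgre1 (0.94) and Elane (0.50) above. The second Nkg7 probe had a log2 ratio of 0.87, and Klf1 of the erythroid list had -0.30. The part of these cells in the pathway genes' values was not tested. In such bulk RNA, fewer cells of a type and less RNA per cell cannot be told apart.

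Pathway genes that stood at least 2-fold apart lay among the ligands, the receptors, the Smads, the ubiquitin ligases and the corepressors. By the brightest probe, Bmpr1a, a type I receptor for BMPs, and Smad3, a Smad of TGF-beta and activin, were higher in diabetic mice. The other Smad3 probe went the other way (log2 ratio -0.65 ± 0.21). The ligand Bmp4, the activin receptors Acvr1b and Acvr2a, the ubiquitin ligase Smurf1 and the corepressor Ski were lower. The values of Bmpr1a, Acvr1b, Smurf1 and Ski each rest on 1 spot of 1 probe. Of the 38 genes, 31 had a value by their brightest probe, 30 as a ratio and Bmpr1a as a bound. Of these, 2 (6.45%) were at least 2-fold higher, and over all 15192 genes with a value 11.0% were. Another 5 (16.1%) were at least 2-fold lower, and over all genes 10.1% were. The other 24 lay within 2-fold. The median log2 ratio of the members was 0.08 and that of all genes 0.02, with 17 members above 0 and 14 below. The members thus lay on both sides of 0.

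**Figure D1:**
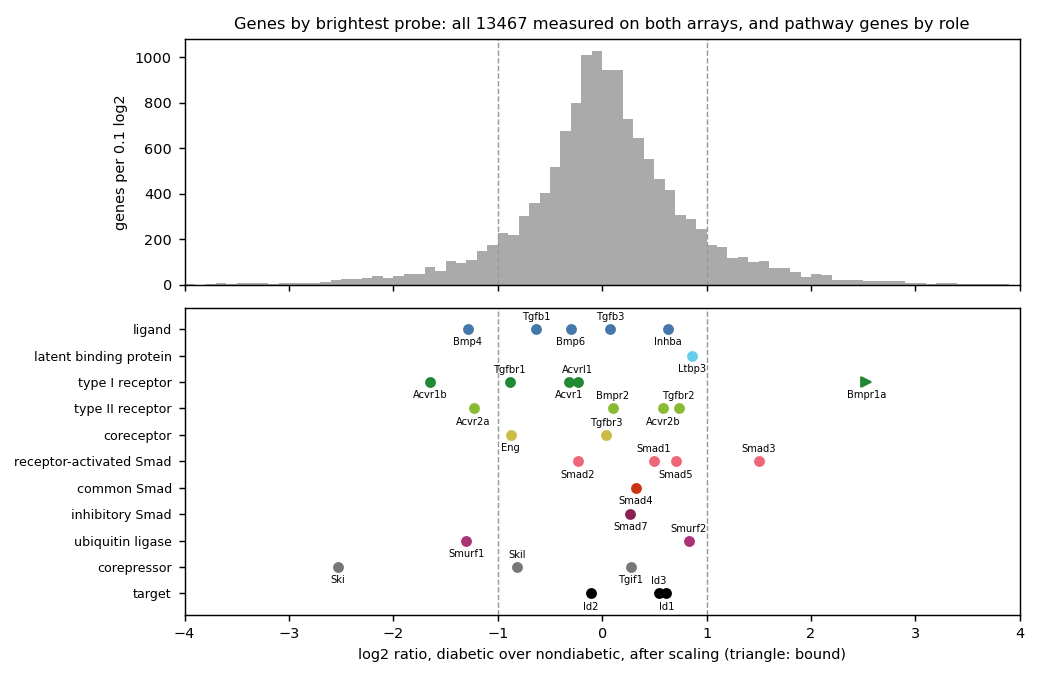
The upper panel counts all 13467 genes measured on both arrays by log2 ratio, diabetic over nondiabetic, in steps of 0.1. The lower panel places the 31 pathway genes with a value in rows by role, with a triangle for the bound of Bmpr1a. Dashed lines mark 2-fold, and 2 pathway genes lie beyond the right line and 5 beyond the left.

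By single probes, 42 of the 53 had a value. Of these, 4 (9.52%) were at least 2-fold higher, against 11.2% of all 37791 probes with a value. A further 5 (11.9%) were at least 2-fold lower, against 11.2% of all probes. Both shares were near those of the whole array. Among the 40 probes measured on both arrays, 24 (60.0%) had a log2 ratio of over 2 times its software error, against 44.1% of all such probes.

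**Figure D2:**
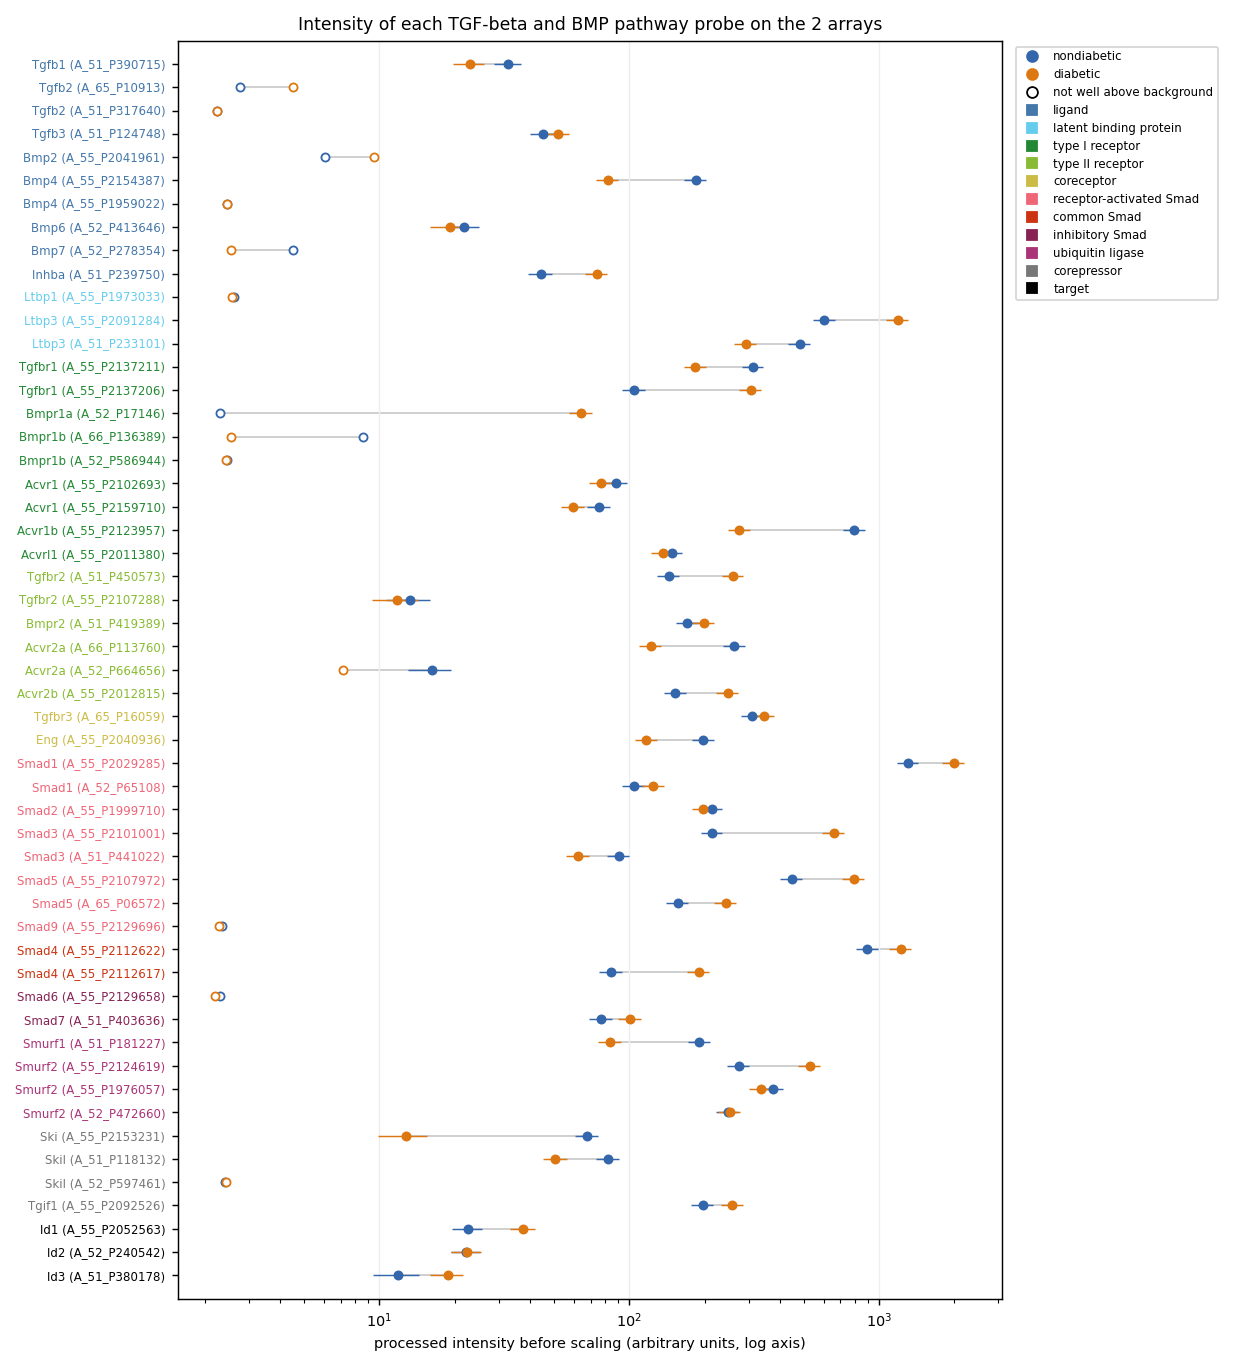
Processed intensity (log axis, arbitrary units) of the 53 pathway probes on the nondiabetic (blue) and diabetic (orange) array, with bars for the software error. Open circles are probes not well above background, and 41 probes are filled on each array. Only the 2 points of 1 row can be compared.

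Ligands and their latent binding proteins gave 6 genes with a value, of which 1, Bmp4, was past 2-fold. Bmp4 is a BMP ligand made by several cell types of the marrow. Its probe A_55_P2154387 went from 184 ± 18.6 to 81.9 ± 8.59, a log2 ratio of -1.29 ± 0.21 (2.44-fold lower). The other Bmp4 probe, A_55_P1959022, was dim on both arrays, so the lower Bmp4 signal rests on 1 probe. The summed stromal markers were also lower (122 and 80.4), with the lower sum owed to Col1a2. This gene read 85.2 ± 8.82 and 43.9 ± 4.91 (log2 ratio -1.07 ± 0.22). Cxcl12 and Lepr lay close to background on both arrays, and Col1a1 and Dcn were dim on both. The part of stromal cells in the Bmp4 value was not tested. Bmp6, another BMP, read 21.7 ± 3.35 and 19.1 ± 3.16, a difference smaller than its error (log2 ratio -0.30 ± 0.33). Inhba encodes the subunit of activin A and read 44.2 ± 4.94 and 74.1 ± 7.71, with a log2 ratio of 0.63 ± 0.22.

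For 3 members the array carried the same probe in 10 spots, which gives the error of the spot itself. The probe of Tgfb1, the main TGF-beta of blood cells, kept 9 spots after 1 outlier was left out. They ranged from 23.7 to 38.4 with a median of 33.9 on the nondiabetic array, and from 17.1 to 28.5 with a median of 24.4 on the diabetic array. All 9 spots were lower on the diabetic array, although the ranges overlapped, and the mean log2 ratio was -0.63 (SD 0.25 over spots), 1.55-fold lower. For Tgfb3, a related TGF-beta, the 10 spots ran from 40.7 to 50.2 (median 46.7) and from 42.1 to 68.8 (median 50.7). Its spots did not share a direction, since 4 were lower and 6 higher after scaling (2 and 8 before it), and the mean log2 ratio was 0.08 (SD 0.26). Skil encodes SnoN, a corepressor that binds Smads. Its 10 spots ran from 68.3 to 97.7 (median 84.3) on the nondiabetic array and from 46.6 to 57.9 (median 49.5) on the diabetic array. These ranges did not overlap, and the mean log2 ratio was -0.82 (SD 0.20), 1.76-fold lower. Spots of 1 array share the same RNA, so this spread is technical. Over the 237 probes of the array that were printed at least 5 times and measured on both arrays, the median SD between spots was 0.13. The Tgfb1 and Skil differences were thus larger than the spot error but under the 2-fold limit. Megakaryocytes and platelets are a known source of TGF-beta1. Their 4 markers had summed intensities of 356 and 619, mostly from Pf4 (261 and 478), with Ppbp dim on both arrays. Their part in the Tgfb1 value was not tested.

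**Figure D3:**
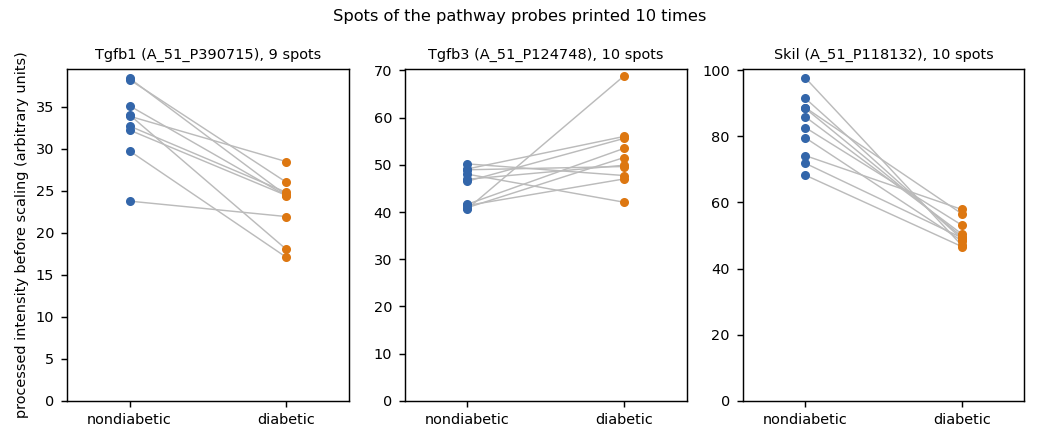
Processed intensity (arbitrary units, axis from 0) of single spots of the Tgfb1, Tgfb3 and Skil probes on both arrays, with a line joining the same spot position. Values are unscaled. The lines go down in 9 of 9 Tgfb1 spots and 10 of 10 Skil spots, while those of Tgfb3 go down in 2 spots and up in 8.

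Ltbp3, which binds TGF-beta in its latent form, gave opposite readings on its 2 probes. Probe A_55_P2091284 went from 604 ± 60.4 to 1187 ± 119 (log2 ratio 0.86 ± 0.20), and probe A_51_P233101 went from 481 ± 48.1 to 292 ± 29.3 (-0.84 ± 0.20). The mean of both was 0.01, so no direction can be given for this gene. Tgfb2, Bmp2, Bmp7 and Ltbp1 had no probe well above background on any array.

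Receptors and coreceptors gave a value for 11 of 12 genes, of which 1 passed 2-fold upwards and 2 downwards. Bmpr1a (ALK3) was dim on the nondiabetic array at 2.31 ± 2.32 and read 64.0 ± 6.78 on the diabetic array. This is at least 5.78-fold higher, taken against the lowest intensity well above background on the nondiabetic array (10.2). Bmpr1b, the related BMP receptor, was dim on both arrays with both of its probes. Acvr1b (ALK4), the type I receptor of activin and Nodal, went from 794 ± 79.5 to 276 ± 27.6, a log2 ratio of -1.64 ± 0.20 (3.13-fold lower). It was the largest fall among the members' receptors. Acvr1 (ALK2), which takes up BMP signals, was lower on both of its probes by less than 2-fold, with log2 ratios of -0.31 ± 0.21 and -0.47 ± 0.21. Acvrl1 (ALK1), a receptor best known from endothelium, read 148 ± 14.9 and 136 ± 13.8 (log2 ratio -0.23 ± 0.21).

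Tgfbr1 (ALK5) is the type I receptor of TGF-beta itself. Its probe A_55_P2137211 went from 313 ± 31.4 to 184 ± 18.5 (log2 ratio -0.89 ± 0.21). Its probe A_55_P2137206 went from 105 ± 10.7 to 306 ± 30.7 (1.43 ± 0.21). The probes thus moved in opposite directions by more than their errors, and the mean over both was 0.27, so the arrays give no single answer for Tgfbr1.

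Among type II receptors, Acvr2a, which binds activins and BMPs, was lower on both of its probes. Probe A_66_P113760 went from 263 ± 26.5 to 122 ± 12.4, a log2 ratio of -1.23 ± 0.21 (2.35-fold lower). Probe A_52_P664656 went from 16.2 ± 3.15 to 7.17 ± 2.72, which was dim, at least 1.75-fold lower. Acvr2b, its close relative, lay on the other side, with 153 ± 15.5 and 248 ± 24.9 (log2 ratio 0.58 ± 0.21). Tgfbr2, the type II receptor of TGF-beta, went from 144 ± 14.6 to 260.1 ± 26.1 on probe A_51_P450573 (0.73 ± 0.21). Its second probe, A_55_P2107288, was close to background at 13.3 ± 2.61 and 11.8 ± 2.48 (-0.29 ± 0.42). Bmpr2, the type II receptor of BMPs, read 171 ± 17.2 and 198 ± 20.0, a log2 ratio of 0.10 ± 0.21 that was smaller than its error.

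The coreceptors present ligands to the kinases. Tgfbr3 (betaglycan) read 310.1 ± 31.1 and 346 ± 34.7, with a log2 ratio of 0.04 ± 0.20. Eng (endoglin), found on endothelium and on stem cells, went from 198 ± 19.9 to 117 ± 11.9 (log2 ratio -0.87 ± 0.21), 1.83-fold lower. The endothelial markers did not share a direction. Their summed intensity was 1143 and 1852, with the higher sum owed to Pecam1 (162 and 936), while Emcn (log2 ratio -1.30), Tek (-0.60) and Kdr (-0.11) lay below 0. Cdh5, which defines endothelium, was dim on both arrays.

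**Figure D4:**
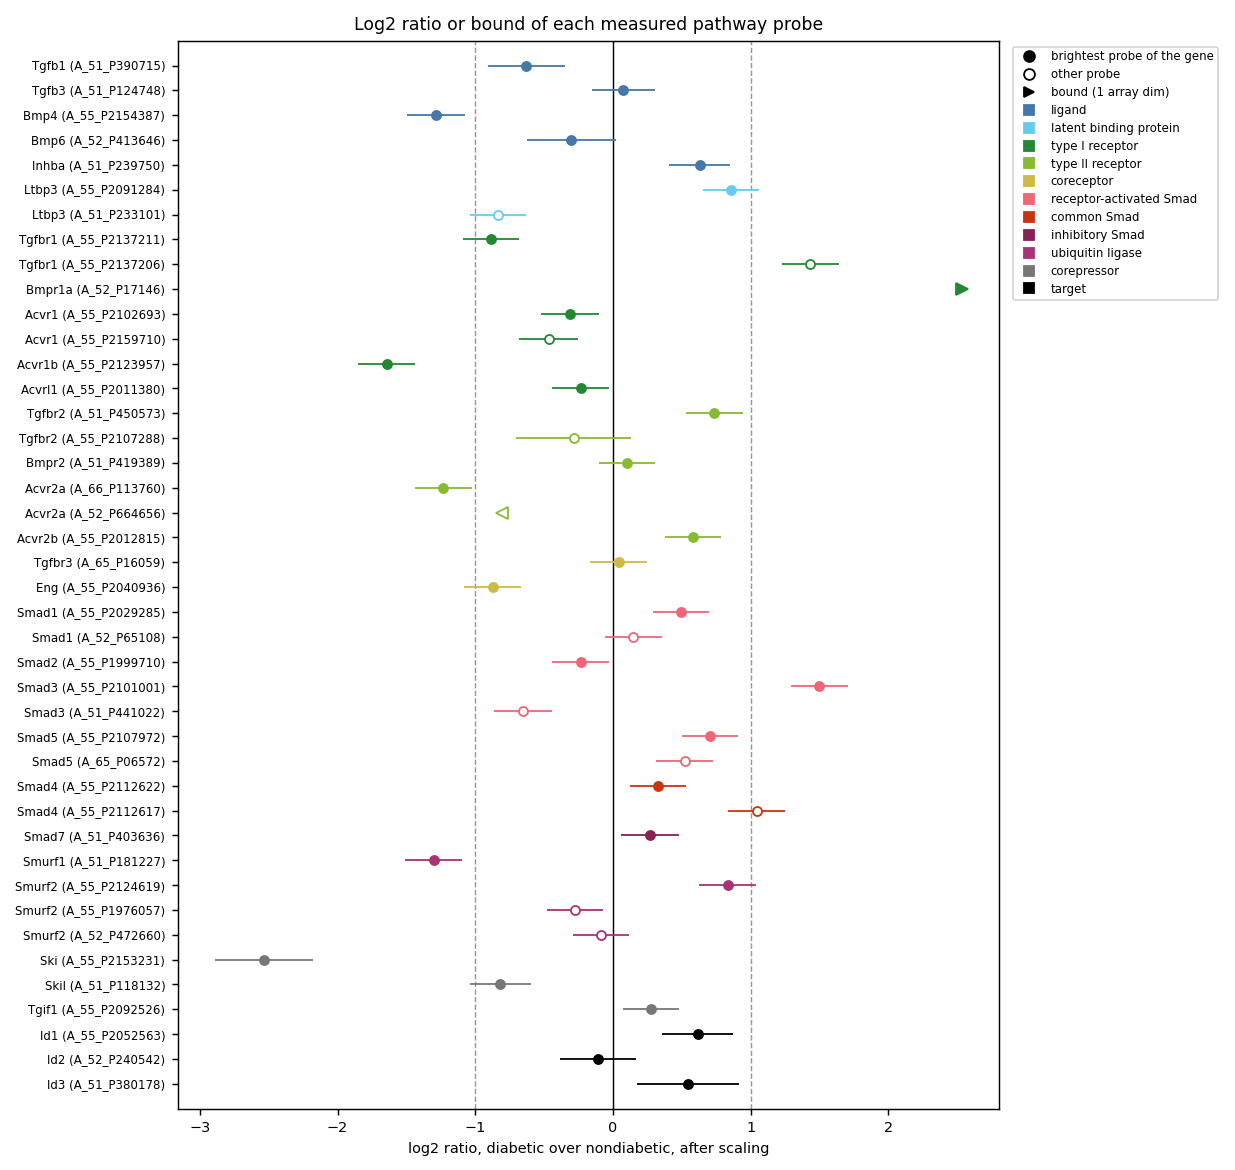
Log2 ratio (diabetic over nondiabetic, after scaling) of the 42 pathway probes with a value, coloured by role, with bars for the software error and triangles for bounds. Filled symbols are the brightest probe of a gene and open symbols its other probes. Dashed lines mark 2-fold, with 4 probes beyond on the right and 5 on the left. Ltbp3, Tgfbr1, Tgfbr2, Smad3 and Smurf2 have probes on both sides of 0.

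Of the 6 Smads with a value, 5 had a log2 ratio above 0 by their brightest probe and 1 below, with a median of 0.41. Over all 15192 genes with a value, 7773 lay above 0 and 7419 below. Smad3 was the only Smad past 2-fold by its brightest probe, A_55_P2101001. This probe went from 214 ± 21.5 to 657 ± 65.7, a log2 ratio of 1.50 ± 0.20 (2.83-fold higher). Its other probe, A_51_P441022, went the other way, from 90.7 ± 9.30 to 62.6 ± 6.60 (-0.65 ± 0.21). The mean over both was 0.42, so the higher Smad3 signal holds for 1 of its 2 probes. Smad2, the partner of Smad3 in TGF-beta signalling, read 214 ± 21.5 and 198 ± 19.9 (log2 ratio -0.23 ± 0.21).

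The Smads of the BMP arm were higher on each measured probe by less than 2-fold. Smad5 had log2 ratios of 0.71 ± 0.20 (446 ± 44.7 and 789 ± 79.0) and 0.52 ± 0.21 (156 ± 15.8 and 243 ± 24.4). Smad1 had 0.49 ± 0.20 (1303 ± 130.4 and 1989 ± 199) and 0.15 ± 0.21 (104 ± 10.7 and 125 ± 12.7). For Smad5 the probes agreed within their errors. Smad9 was dim on both arrays. Smad4, the partner shared by both arms, was higher on both probes, at 896 ± 89.6 and 1218 ± 122 (0.33 ± 0.20) and at 84.7 ± 8.83 and 189 ± 19.1 (1.04 ± 0.21). Of the inhibitory Smads, which block the receptors, Smad7 read 76.9 ± 8.05 and 101 ± 10.3 (0.27 ± 0.21), and Smad6 was dim on both arrays.

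The ubiquitin ligases and corepressors gave 5 genes with a value, of which 2 were at least 2-fold lower and 0 higher. Over all genes with a value, 10.1% were at least 2-fold lower and 11.0% higher. Ski, a corepressor that binds Smads on DNA, had the largest fall of all members. It went from 68.0 ± 7.24 to 12.7 ± 2.82, a log2 ratio of -2.53 ± 0.35 (5.79-fold lower), and its diabetic reading lay near the lowest intensity well above background on that array (10.1). Its relative Skil was lower on all spots, as given above, while a second Skil probe was dim on both arrays. Tgif1, a corepressor of another family, read 196 ± 19.8 and 258 ± 25.9 (0.28 ± 0.21).

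Smurf1, a ubiquitin ligase that marks BMP Smads and receptors for destruction, went from 191 ± 19.2 to 83.9 ± 8.63, a log2 ratio of -1.30 ± 0.21 (2.47-fold lower). Smurf2, its relative, had 3 probes that did not share a direction. They went from 274 ± 27.4 to 528 ± 52.9 (0.83 ± 0.20), from 374 ± 37.5 to 336 ± 33.6 (-0.27 ± 0.20) and from 248 ± 24.9 to 253 ± 25.4 (-0.09 ± 0.20). The first and second of these were almost equally bright, so the value that stands for Smurf2 depends on the probe.

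The Id genes encode inhibitors of helix-loop-helix factors and are direct targets of BMP Smads. Id1 went from 22.7 ± 3.10 to 37.7 ± 4.31, with a log2 ratio of 0.61 ± 0.26. Id3 went from 11.9 ± 2.47 to 18.8 ± 2.86, with a log2 ratio of 0.55 ± 0.37. Id2 read 22.3 ± 3.01 and 22.4 ± 3.01, with a log2 ratio of -0.11 ± 0.27 after scaling. All 3 were measured close to background and stayed within 2-fold, and only Id1 differed by over 2 times its error.

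The 250 bases before the start of Id2 and Id3 are shown because these genes read the output of the BMP Smads, and the letters bound by Smads can be looked for in them. Id1 was not among the members matched to RefSeq promoters, so its bases are not shown. The sequences are from RefSeq, build GRCm38.p6, 5′ to 3′ on the strand of the gene, at chr12:25096093-25096342 (minus strand) for Id2 and chr4:136143572-136143821 (plus strand) for Id3. Capitals mark GGCGCC, a GC-rich Smad motif that reads the same on both strands, and CAGAC, the Smad box, or its reverse complement GTCTG.
Id2: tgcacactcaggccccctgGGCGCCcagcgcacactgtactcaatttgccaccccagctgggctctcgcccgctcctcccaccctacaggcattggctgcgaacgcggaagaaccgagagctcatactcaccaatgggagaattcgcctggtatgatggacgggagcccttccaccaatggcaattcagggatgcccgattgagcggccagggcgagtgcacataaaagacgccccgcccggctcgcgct
Id3: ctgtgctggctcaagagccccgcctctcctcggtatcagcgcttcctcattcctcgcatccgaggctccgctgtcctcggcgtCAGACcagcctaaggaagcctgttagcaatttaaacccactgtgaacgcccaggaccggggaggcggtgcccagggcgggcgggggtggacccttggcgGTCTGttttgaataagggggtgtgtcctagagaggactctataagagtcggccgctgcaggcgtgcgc

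The Id2 window held 1 GGCGCC and 0 CAGAC, and the Id3 window held 0 GGCGCC and 2 CAGAC. Of the members, 28 were matched to RefSeq promoters, with 38 windows in all, since a gene can have several starts whose windows may overlap. GGCGCC stood in 8 of the 38 windows (21.1%) and in 9.59% of the 32851 windows of all genes. CAGAC stood in 19 of the 38 and in 42.2% of all windows. These matches are a description of letters in a window and do not show binding.

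By arm, the 10 genes of the TGF-beta and activin arm gave 9 values with a median log2 ratio of 0.04, of which 1 was at least 2-fold higher (Smad3) and 1 lower (Acvr1b). The 15 genes of the BMP arm gave 11 values with a median of 0.10, of which 1 was at least 2-fold higher (Bmpr1a) and 1 lower (Bmp4). Both medians lay within 0.1 of that of all genes. Acvr2a, Smurf1 and Ski were counted in neither arm.

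Several probes of 1 gene differed often. Of the 9 members with several probes measured on both arrays, 5 (Ltbp3, Tgfbr1, Tgfbr2, Smad3 and Smurf2) had probes of opposite sign, a share of 55.6%, against 48.9% of the 3245 such genes of the array. The probes of 5 members (55.6%) stood over 2-fold apart, against 35.4% of all such genes. The median distance between the outermost probes of a gene was 1.02 on the log2 scale for the members and 0.66 for all such genes. Acvr1, Smad1, Smad4 and Smad5 kept their sign on both probes.

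A wider list of 86 other genes of the same pathways gave 56 values, of which 1 (1.79%) lay past 2-fold upwards and 8 (14.3%) downwards, with a median log2 ratio of 0.03. Over all genes with a value these shares were 11.0% and 10.1%. The higher gene was Twsg1, which encodes an extracellular BMP-binding protein, at 18.2 ± 3.05 and 57.6 ± 6.27 (log2 ratio 1.55 ± 0.29). Among the lower genes, Map3k7 encodes TAK1, the kinase of the Smad-independent branch, and Tab1 its partner. Tab1 went from 82.4 ± 8.56 to 36.3 ± 4.32 (-1.30 ± 0.23). Map3k7 went from 412 ± 41.3 to 96.2 ± 9.86 on its brightest probe (-2.22 ± 0.21), but its other probes had log2 ratios of 0.51 and 0.33.

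Ppm1a, a phosphatase that acts on Smads, had a log2 ratio of -1.14 ± 0.21, and Thbs1, whose product thrombospondin activates latent TGF-beta, had -1.33 ± 0.21. Tgif2, a corepressor, had -1.22 and -1.04 on its brighter probes and 0.11 on the third. Wwp1, a ubiquitin ligase, had -1.02 on its brightest probe and 1.22 on the other. Cfc1, a coreceptor of Nodal, went from 57.3 ± 6.16 to a dim 3.83 ± 2.25, at least 6.18-fold lower. Cdkn1c, the cell cycle inhibitor p57 and a target of TGF-beta in stem cells, went from 21.7 ± 3.25 to a dim 3.26 ± 2.43, at least 2.34-fold lower.

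Each difference compares 1 array with 1 array, so none could be set against a spread between mice. With normexp background correction, which adds an offset of 50 to each intensity, Smad3 (1.30), Acvr1b (-1.43) and Acvr2a (-1.01) kept a log2 ratio past 2-fold, while Bmpr1a (0.90), Bmp4 (-0.81), Smurf1 (-0.87) and Ski (-0.80) did not.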

How the data were processed

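The authors deposited a scanner file for each 1-colour array, made with Agilent Feature Extraction 11.5.1.1 per the file headers, with a processed intensity per spot that the software had corrected for background. The deposited table of processed values is, spot by spot, this intensity times 1 constant per array (11.1 and 10.2). Its direction and scale were settled in this way. On the log2 scale, each array was centred on the 75th percentile of its 59305 non-control spots. Outlier spots (192 and 147) were left out on both arrays, and spots of a probe were averaged. A probe well above background on 1 array has a bound, against its own dim value or, where higher, the lowest intensity the software called well above background there. The brightest probe stood for a gene. Probes were named through RefSeq transcripts (GRCm38.p6), which named 31845 spots. The array grid uses mm9, so no coordinates of probes are given. All members are reported; of the other pathway genes, those past 2-fold are named. The members and lists were chosen with earlier results of these data known. Both arrays shared 1 slide and 1 scan. The alternatives were normexp (offset 50, on median intensities), quantile normalization, median centring, loess, no filter on dim probes, probes above background on both arrays only, a floor, the authors' table, and the mean over a gene's probes. One erythroid marker is not reported here, and its list was summed without it. The steps were tested on a simulated diabetic array built from the nondiabetic one, which checks the calculation and not the differences reported here. Python 3.11.15 (numpy 2.4.6, pandas 2.3.3) and R 4.3.3 (limma 3.58.1) were used. The number of arrays limits the precision.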

Additional observations from a re-analysis of the deposited data

How the results depend on the processing

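All 7 members past 2-fold kept their direction and stayed over the limit with quantile normalization, median centring, loess, no filter on dim probes, a floor and the authors' table. With normexp 3 of them did, and the members counted 1 gene and 2 probes higher, and 2 genes and 2 probes lower. The other pathway genes then counted 0 higher and 1 lower, and over all genes 3.96% were higher and 3.29% lower. Normexp with its offset pulls dim probes towards a ratio of 1 by its construction. With only probes above background on both arrays, 1 member gene was higher, since Bmpr1a has no ratio there. With the mean over a gene's probes, 1 member gene was higher (Smad3 had 0.42), 5 other pathway genes were lower, Tgfbr1 went from -0.89 to 0.27 and Wwp1 from -1.02 to 0.10. With no filter on dim probes, 6 other pathway genes were higher, and the members' median was -0.03 against -0.09 for all genes. With a floor, the medians were -0.14 for both. This is the value that the floor gives to every gene dim on both arrays, so the equal medians say nothing about the members. Without the filter and with the floor, the median of all genes moved by -0.11 and -0.16. Of the 38 members, 7 were too dim on both arrays for a ratio. No paired analysis was possible because there was a single array for each group. Leaving out a replicate or taking the slide as a block was not possible for the same reason.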
